A study of Mus musculus with 29 samples.

Results

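Loss of the cell death gene Puma was examined in blood progenitor cells that also lack Mysm1. The comparison takes 6 of the 29 libraries of the series. In 3 of them, B1, B3 and B5, the mice carried Mysm1-/- and Puma-/-, so both genes were lost. In the other 3, A1, A2 and A3, the mice carried Mysm1-/- and Puma+/-, which left 1 working Puma allele on the same Mysm1-null background. The libraries were chosen by their labels alone, and genes were described across the genome. All mice were C57BL/6 and 8 to 12 weeks old, and every library came from lineage-negative, cKit-positive, Sca1-positive marrow cells that did not carry the surface receptor CD150. The same sort also gave 3 Puma-/- libraries with intact Mysm1 (C2, C3 and C5) and 3 wild-type libraries (D2, D3 and D4), which serve as points of comparison. The labels name no Cre driver, and give mice of both sexes, pooled and matched between groups. No Mysm1-/- library with both Puma alleles is among the samples analysed here, and the submitters hold that Mysm1-/- Puma+/- animals resemble such mice.

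Mysm1 encodes a deubiquitinase that removes ubiquitin from histone H2A and is needed for blood stem and progenitor cells in mice. Bbc3, the gene called Puma here, encodes a BH3-only protein that binds Bcl-2-type survival proteins at the mitochondrion and so sets off Bax and Bak. It is a direct target of p53, which also induces Cdkn1a, a brake on the cell cycle, and Mdm2, which degrades p53. Progenitors of the CD150-negative fraction divide more often than stem cells. Dividing cells switch on histone, replication and mitosis genes in waves. The promoters of many mitosis genes carry CCAAT boxes and a cell cycle genes homology region, abbreviated CHR, through which the DREAM and MuvB complexes hold them back outside G2 and M phase. The series title asks about the part that Puma plays in the survival of these progenitors.

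The 6 libraries held between 36985145 and 38415140 counts, so depth differed little between the groups. Kit, which encodes the cKit receptor of the gate, was at 462 to 613 CPM (counts scaled to a common library size by TMM) in them, and the progenitor marker Cd34 at 449 to 605 CPM. Slamf1, which encodes CD150, was at 0.225 to 1.95 CPM in them. Ly6a, which encodes Sca1, was at 14.1 to 26.3 CPM. Hba-a1, alpha-globin, was at 0 in all 6, and Hbb-b1, beta-globin, reached at most 0.112 CPM. A few libraries stood apart. A2 had 446 CPM of Xist, the RNA that silences an X chromosome, against 2.28 to 9.37 CPM in the other 5, although the labels give every library as both sexes pooled. Ddx3y, a gene of the Y chromosome, was at 0.079 CPM of the library total in A2, against 118 to 149 in the other 5. By these genes A2, a heterozygous library, was female and the other 5 were male, so sex was not matched between the groups. The part of sex in the calls was not tested. The A2 library of CD150-positive cells stood apart likewise, with Xist at 333 CPM of the library total against 1.41 to 13.6 in the other 16. Its Ddx3y was at 0.563, against 62.7 to 141 in those 16. Odorant and pheromone receptor genes (the Olfr, Vmn and Taar families), which are not known to act in marrow and were taken as background, took 5671 CPM of the library total in B1, 2848 in B3 and 3128 in B5, against 2928 in A1, 3008 in A2 and 1000 in A3. B1 was thus the highest and A3 the lowest, and the other 4 libraries were close to each other. Results are therefore given also without A3 and B1. The fold change also depended on gene length. Among genes with a mean log2 CPM of 4 or more, the median log2 fold change was -0.51 for genes under 1000 bases and 0.00 for those of 4000 bases or more. Without A3 and B1 these medians were -0.43 and 0.10. The part of this trend in the changes of single genes was not tested, and list values are given also with it removed.

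**Figure D1:**
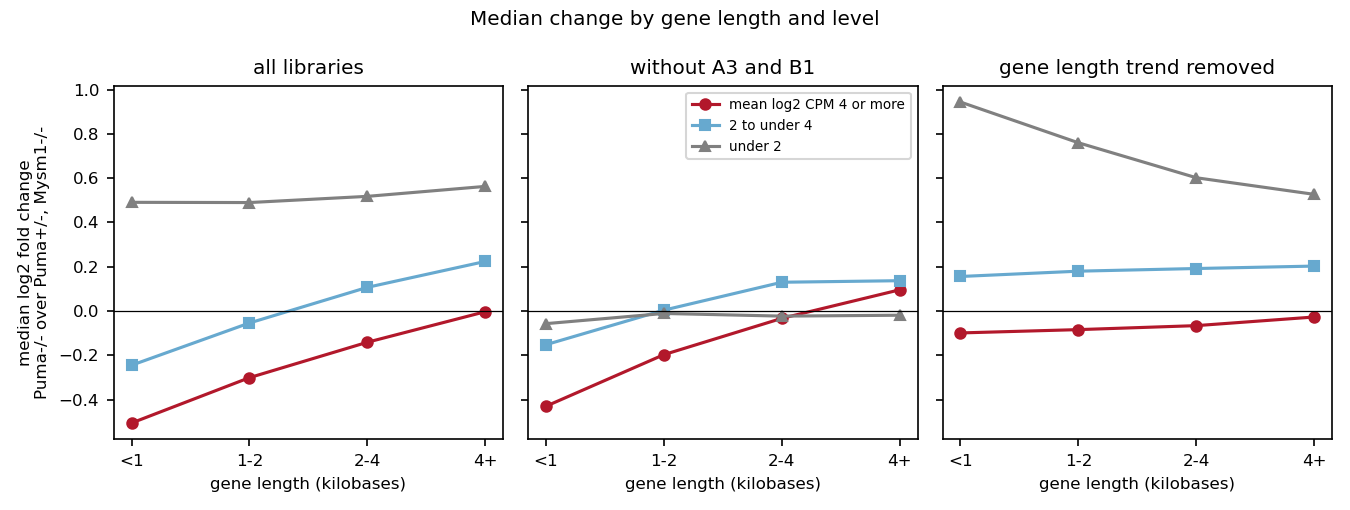
Median log2 fold change (Mysm1-/- Puma-/- over Mysm1-/- Puma+/-) of tested genes by gene length in kilobases (x axis), for 3 classes of mean log2 CPM (lines), with all libraries, without A3 and B1, and after a trend on gene length was taken out of each library. With all libraries, short genes of high level lie lowest (-0.51), and genes under a log2 CPM of 2 lie near 0.5; that offset of low genes goes to about 0 without A3 and B1.

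The genes named by the genotypes came first. Mysm1 had 74.1, 67.4 and 69.6 CPM in the double-knockout libraries B1, B3 and B5, against 125, 102 and 78.7 CPM in the heterozygous libraries A1, A2 and A3. Its 2 groups did not overlap, and its log2 fold change was -0.53 ± 0.15 (SE, edgeR adjusted p = 0.0748). Bbc3 had 20.2, 26.0 and 29.7 CPM in the double knockout, against 21.3, 27.8 and 46.5 CPM in the heterozygous libraries. Those ranges overlapped, with a log2 fold change of -0.33 ± 0.26 (adjusted p = 0.573). Which exons the alleles delete is not stated, and whole-gene counts therefore check neither allele. Mysm1 lies on chromosome 4 from 94608731 to 94645791 and Bbc3 on chromosome 7 from 16894965 to 16903554 in build NCBIM37.

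Across 21168 genes tested, 41 rose and 222 fell in Mysm1-/- Puma-/- cells relative to Mysm1-/- Puma+/- cells, which is 0.194% and 1.05% of the genes tested. The median log2 fold change of all genes was 0.09. A call is an adjusted p under 0.05 by edgeR's quasi-likelihood test with Benjamini-Hochberg adjustment, on counts of all 12 CD150-negative libraries. Of the 21168 genes 3607 had an unadjusted p under 0.05 by that test, in either direction. DESeq2 called 251 genes higher and 1126 lower. The counts of list members given below are to be read beside these. Nothing in the labels ties each library to an animal of its own, so p-values cover the spread between libraries only. Replication-dependent histone genes made up 53 of the 222 falls, genes of mitosis 43 and genes of DNA replication 6, so that these lists held 45.9% of the falls. The calls rested on few libraries. With only the 6 libraries compared in the fit there were 2 calls, 1 in each direction, and 0 in the histone, mitosis and replication lists. With the background receptor level as a covariate, 133 rose and 191 fell, and with the length trend removed 20 rose and 46 fell. Leaving out A2, the library with Xist, left 1 call, Gem, the only gene whose call held when any single library was left out. The total of 263 calls was 47 without A1, 1086 without A3, 64 without B1, 89 without B3 and 942 without B5. It was 115 without D2 and 113 without D3, wild-type libraries that share the estimate of the spread. Without both A3 and B1 there were 210 rises (0.978% of 21477 genes) and 310 falls (1.44%). Of the 222 falls 195 were among those 310, and of the 41 rises 26 were among those 210.

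Histone genes showed the broadest fall. These genes encode the core and linker histones that package new DNA, are expressed in S phase, and give short RNAs that end in a stem-loop in place of a poly(A) tail. Their summed level was 28490, 40980 and 43450 CPM in B1, B3 and B5, against 70810, 74680 and 67290 CPM in A1, A2 and A3. Every double-knockout library lay below every heterozygous library. The sums were 74828 ± 1680 CPM in Puma-/- cells and 79697 ± 7964 CPM in wild-type cells (SD, n = 3 each), so the double knockout also lay below both Mysm1-intact groups. Of 63 tested members 53 fell and 0 rose, and the list median was -0.90. In 57 of the 63 all 3 double-knockout libraries were below all 9 others, against 3.2% of all genes tested. In bulk libraries, fewer cells in S phase and less histone RNA per cell cannot be told apart.

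Hist2h2bb, an H2B gene, had the largest called fall of the list, with 195, 290 and 316 CPM in the double knockout, against 658, 731 and 528 CPM in the heterozygous libraries. Its log2 fold change was -1.26 ± 0.17 (adjusted p = 0.00792). The called genes of highest level, Hist1h2ab, Hist1h2ai, Hist1h2ah, Hist1h2ad, Hist1h2ag and Hist1h2ac, are all H2A genes of the chromosome 13 cluster. Hist1h2ab had 1897, 2759 and 2985 CPM in the double knockout, against 4744, 4941 and 4534 CPM in the heterozygous libraries (log2 fold change -0.90 ± 0.17). Clustered histone genes are near-identical copies, so the share of single genes is uncertain and the summed level is the firmer value. Hist2h2be and Hist4h4, whose deposited lengths of 2618 and 2879 bases are the longest of the members not called, had log2 fold changes of -0.12 and -0.01. No histone was called without A2 and 32 were without A1, with list medians of -0.82 and -0.92. The median length of the tested members was 468 bases, and after the trend on gene length was taken out the median became -0.47 with 16 falls. Without A3 and B1 52 members fell, and the median was -0.77.

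**Figure D2:**
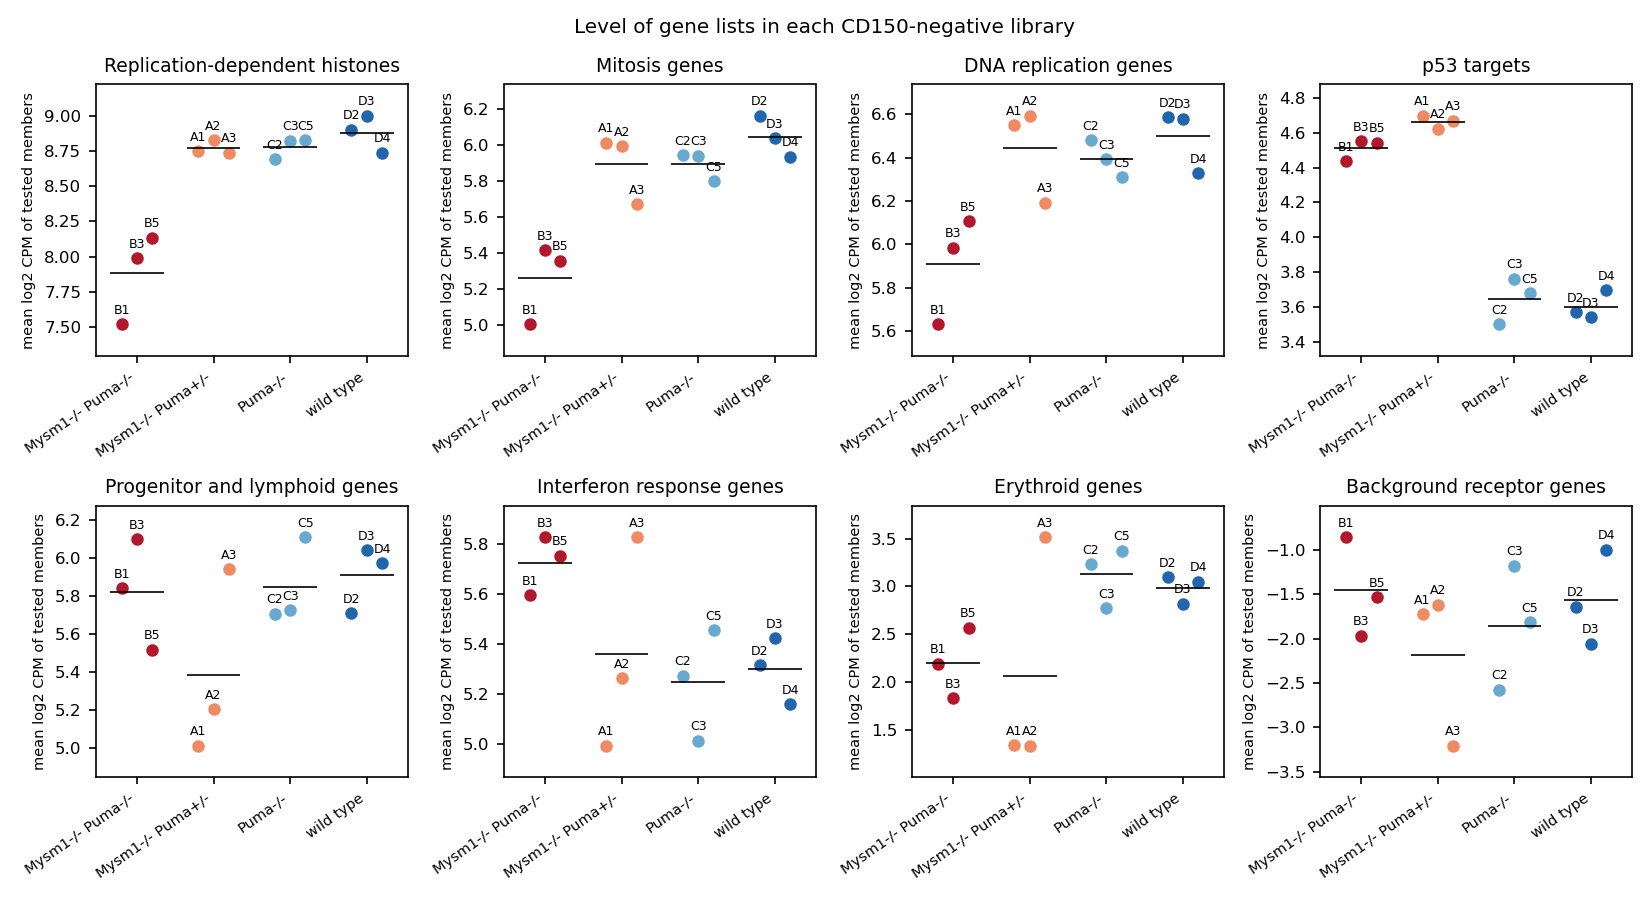
Mean log2 CPM of the tested members of 8 gene lists (y axis) in each of the 12 CD150-negative libraries, grouped by genotype with a line at the group mean. In histone, mitosis and DNA replication genes B1, B3 and B5 lie below all other libraries, while p53 targets stay high in both Mysm1-/- groups; in progenitor, interferon and erythroid genes A3 lies apart from A1 and A2.

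Genes that carry a cell through mitosis were lower as a group. Over 6 lists with 112 tested genes, 43 fell and 0 rose, and the median log2 fold change was -0.65. The log2 fold change was below 0 in 111 of the 112. Their mean level was 5.01, 5.42 and 5.36 log2 CPM in B1, B3 and B5, against 6.02, 6.00 and 5.67 log2 CPM in A1, A2 and A3. It was 5.80 to 5.95 in Puma-/- cells and 5.94 to 6.16 in wild-type cells, so the double knockout stood below all 9 other libraries. All 43 genes called had a double-knockout mean below the range of the 6 Mysm1-intact libraries, as did 191 of all 222 falls. That count is a description, since genes called lower were picked for a low double knockout. The number called was 0 without A2, 2 without A1, 4 without B1, 17 without B3, 13 without D3, 21 without D2 and 73 without A3. The median lay between -0.75 and -0.54 over all 25 alternatives. With the length trend removed it was -0.60 with 14 falls, and without A3 and B1 it was -0.63 with 53 falls.

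The list of mitotic cyclins and their kinase had 6 of 11 members called and a median of -0.73. Ccna2, cyclin A2, which acts from S phase into early mitosis, had 38, 51.1 and 54.9 CPM in the double knockout, against 110, 109 and 75.3 CPM in the heterozygous libraries. The groups did not overlap, and the log2 fold change was -1.04 ± 0.17 (adjusted p = 0.00792). Cdk1, the kinase that drives entry into mitosis, had 27.1, 51.4 and 56.3 CPM in the double knockout, against 118, 113 and 64.9 CPM in the heterozygous libraries, among which A3 was the lowest (log2 fold change -1.14 ± 0.24, adjusted p = 0.0304). Ccnb1 and Ccnb2, the B-type cyclins, fell by 1.00 ± 0.21 and 0.86 ± 0.17 on the log2 scale. Cks1b, a small Cdk partner, and Mybl2, a factor that joins MuvB to switch on mitosis genes, fell by 0.82 ± 0.18 and 0.73 ± 0.17. Foxm1, the transcription factor that follows Mybl2, had 15.2, 18.3 and 17.5 CPM in the double knockout, against 24.5, 24.7 and 23.3 CPM in the heterozygous libraries, and was not called (log2 fold change -0.51 ± 0.17, adjusted p = 0.123).

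Promoters of these genes are shown because both motifs of the class, CHR and CCAAT, can be read in them. Of the 112 mitosis genes 92 had a promoter in the RefSeq table of build GRCm38.p6, which gives 250 bases before and 50 bases after a gene's start. The letters TTTGAA or TTCGAA (CHR) and CCAAT were searched on both strands, so TTCAAA and ATTGG count as matches, and matches may overlap. CHR letters stood in 59 of the 92 (64.1%), against 19.4% of 27025 genes in the table. CCAAT stood in 63 (68.5%), against 37.9%. Both stood in 49 (53.3%), against 7.7%. Among DNA replication genes CHR letters stood in 9 of 47 (19.1%) and CCAAT in 26 (55.3%). A match of letters is a description and not a site of binding. The promoters of 2 members of the cyclin list and of the 4 called genes of smallest p with an entry follow, 5′ to 3′ on the gene's strand, with CHR and CCAAT matches in capitals. They lie at chr10:69352863-69353162, minus strand, chr9:70421505-70421804, minus strand, chr2:127831810-127832109, minus strand, chr11:106999476-106999775, minus strand, chr4:117178723-117179022, minus strand, and chr5:45669675-45669974, plus strand.
Cdk1: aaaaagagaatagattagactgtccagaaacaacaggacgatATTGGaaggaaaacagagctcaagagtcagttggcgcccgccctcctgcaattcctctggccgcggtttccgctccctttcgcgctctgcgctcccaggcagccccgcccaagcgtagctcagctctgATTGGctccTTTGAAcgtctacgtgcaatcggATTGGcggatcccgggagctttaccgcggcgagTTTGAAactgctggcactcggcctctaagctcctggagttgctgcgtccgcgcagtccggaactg
Ccnb2: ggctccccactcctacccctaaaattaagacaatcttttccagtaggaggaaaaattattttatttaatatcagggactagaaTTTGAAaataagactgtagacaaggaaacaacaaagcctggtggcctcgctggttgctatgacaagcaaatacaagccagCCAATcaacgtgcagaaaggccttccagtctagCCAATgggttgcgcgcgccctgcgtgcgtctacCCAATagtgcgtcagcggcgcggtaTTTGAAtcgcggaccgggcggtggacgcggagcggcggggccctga
Bub1: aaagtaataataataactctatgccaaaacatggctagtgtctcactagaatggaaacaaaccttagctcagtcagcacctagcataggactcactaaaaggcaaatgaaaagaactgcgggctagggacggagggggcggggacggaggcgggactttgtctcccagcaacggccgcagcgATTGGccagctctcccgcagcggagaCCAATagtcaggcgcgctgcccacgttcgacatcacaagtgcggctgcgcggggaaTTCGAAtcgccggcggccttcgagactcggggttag
Kpna2: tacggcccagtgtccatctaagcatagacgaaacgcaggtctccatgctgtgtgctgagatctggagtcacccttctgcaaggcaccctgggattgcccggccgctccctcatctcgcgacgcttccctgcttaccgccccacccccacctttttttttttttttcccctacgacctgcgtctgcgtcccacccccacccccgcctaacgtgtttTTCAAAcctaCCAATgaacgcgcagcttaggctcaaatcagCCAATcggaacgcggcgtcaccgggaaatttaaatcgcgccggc
Kif2c: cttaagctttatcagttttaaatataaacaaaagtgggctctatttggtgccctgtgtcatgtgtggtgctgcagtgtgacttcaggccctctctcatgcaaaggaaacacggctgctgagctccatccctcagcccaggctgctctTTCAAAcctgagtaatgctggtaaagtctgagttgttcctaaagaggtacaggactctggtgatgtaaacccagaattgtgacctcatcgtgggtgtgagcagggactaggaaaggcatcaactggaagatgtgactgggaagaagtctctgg
Ncapg: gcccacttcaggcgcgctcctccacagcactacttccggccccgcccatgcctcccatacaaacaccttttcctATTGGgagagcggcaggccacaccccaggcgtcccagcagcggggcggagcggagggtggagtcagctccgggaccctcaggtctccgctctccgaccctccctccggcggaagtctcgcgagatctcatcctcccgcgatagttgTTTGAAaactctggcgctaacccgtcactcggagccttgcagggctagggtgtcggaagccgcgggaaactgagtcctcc
Cdk1 and Ccnb2 hold 2 CHR matches and 3 CCAAT matches each, Bub1 and Kpna2 1 and 2, Ncapg 1 and 1, and Kif2c 1 CHR match with no CCAAT.

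Kinases and the spindle checkpoint had 9 of 21 members called, with a median of -0.72. Pbk, a mitotic kinase, had 12.7, 18.7 and 22.3 CPM in the double knockout, against 50.8, 46.0 and 27.9 CPM in the heterozygous libraries (log2 fold change -1.22 ± 0.22, adjusted p = 0.0134). Bub1, a checkpoint kinase at the kinetochore, fell by 1.00 ± 0.19, and Bub1b and Mad2l1, which hold back anaphase, fell by 0.88 ± 0.18 and 1.04 ± 0.21. Nek2, a kinase of centrosome separation, fell by 0.86 ± 0.16. Kinesins and spindle proteins had 13 of 22 called and a median of -0.73, the most of the 6 lists. Kif2c, which takes apart microtubules at the centromere, had 24.8, 31.9 and 33.9 CPM in the double knockout, against 64.2, 69.1 and 48.0 CPM in the heterozygous libraries, a fall of 1.00 ± 0.17 on the log2 scale (adjusted p = 0.00877). Kpna2, an importin, Kif20a, a motor of cytokinesis, and Kif18a, which limits spindle length, fell by 1.00 ± 0.18, 0.81 ± 0.16 and 0.97 ± 0.20. Gpsm2, which orients the spindle and was among the 12 largest falls, had 10.7, 15.2 and 15.4 CPM in the double knockout, against 29.1, 35.2 and 28.1 CPM in the heterozygous libraries.

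Kinetochore and centromere genes had 7 of 29 members called and a median of -0.61. Ska1, which couples kinetochores to microtubules, had 9.09, 12.8 and 9.84 CPM in the double knockout, against 26.6, 20.1 and 18.8 CPM in the heterozygous libraries (log2 fold change -1.05 ± 0.18, adjusted p = 0.011). Cenpa, the histone variant that marks centromeres, fell by 0.93 ± 0.19, and Casc5, the kinetochore scaffold also called Knl1, by 0.77 ± 0.17. Condensins, cohesins and topoisomerase had 5 of 16 called and a median of -0.59. Top2a, which untangles sister chromatids, had 464, 659 and 669 CPM in the double knockout, against 1162, 1091 and 831 CPM in the heterozygous libraries (log2 fold change -0.78 ± 0.17, adjusted p = 0.0311). The condensin subunits Ncapg, Ncapd2 and Smc4 fell by 0.98 ± 0.17, 0.70 ± 0.16 and 0.60 ± 0.14. Cytokinesis genes had 3 of 14 called, Cep55, Ect2 and Anln, with a median of -0.51.

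**Figure D3:**
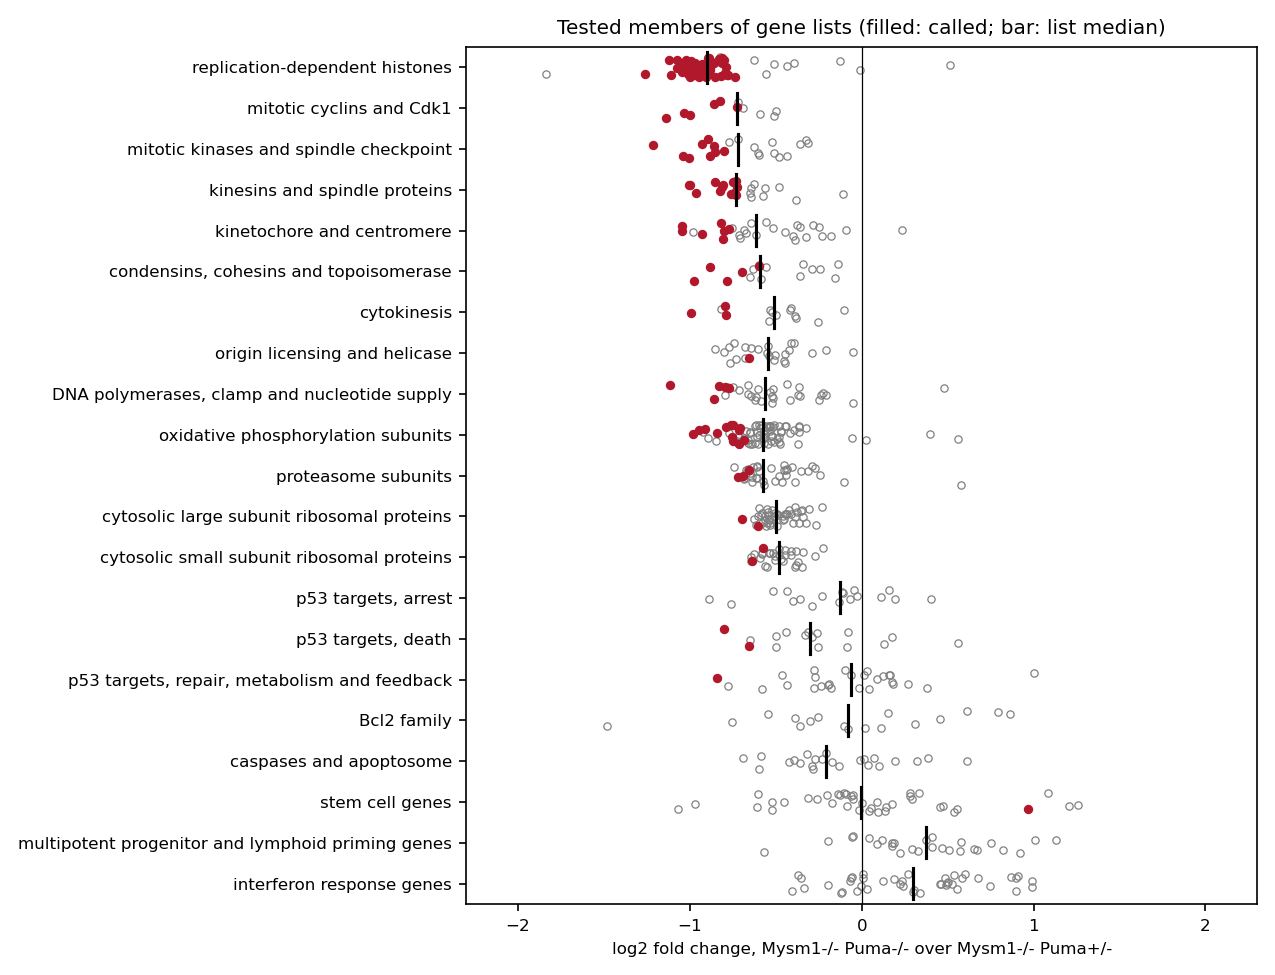
Log2 fold change (x axis, Mysm1-/- Puma-/- over Mysm1-/- Puma+/-) of each tested member of 21 gene lists (rows), filled where called at an adjusted p under 0.05, with a bar at the list median. Histones cluster around -0.90 and the 6 mitosis lists between -0.73 and -0.51, whereas the medians of the 3 p53 target lists are -0.12, -0.30 and -0.06 and that of the Bcl2 family is -0.08.

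Fewer genes of DNA replication passed the threshold. Of 57 tested genes 6 fell and 0 rose, with a median of -0.55 and 56 log2 fold changes below 0. Their mean level was 5.63, 5.98 and 6.11 log2 CPM in B1, B3 and B5, against 6.55, 6.59 and 6.19 log2 CPM in A1, A2 and A3, so the groups did not overlap but B5 came close to A3. Rrm2, the regulated subunit of the enzyme that makes deoxynucleotides, had 26.7, 37.4 and 40.2 CPM in the double knockout, against 80.1, 87.6 and 58.5 CPM in the heterozygous libraries (log2 fold change -1.12 ± 0.18, adjusted p = 0.00792). Rrm1, its partner, Dut, which clears dUTP, Prim1, a primase, and Rpa1, which coats single-stranded DNA, fell by 0.83 ± 0.19, 0.86 ± 0.18, 0.77 ± 0.16 and 0.80 ± 0.17. Among 25 genes of origin licensing and the helicase only Dbf4, which activates the kinase Cdc7, was called (-0.65 ± 0.15, adjusted p = 0.0464). The helicase subunit Mcm2 had 147, 188 and 226 CPM in the double knockout, against 305, 331 and 242 CPM in the heterozygous libraries (adjusted p = 0.0646). Replication calls numbered 0 without A2, 1 without each of A1, B1 and B3, 2 without each of D2 and D3, 32 without A3 and 24 without B5. They numbered 20 without both A3 and B1, with a median of -0.53.

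Regulators of these waves were few, and over all genes tested only 0.194% rose and 1.05% fell, so 0 calls in such lists say little. Of 17 E2F and Rb factors 0 were called by edgeR, with 1 higher and 5 lower at an unadjusted p under 0.05 and 2 lower by DESeq2, and a median of -0.29. E2f1, which switches on S phase genes, had 84.2, 61.0 and 64.2 CPM in the double knockout, against 51.7, 54.8 and 40.0 CPM in the heterozygous libraries, so it was higher in value, without a call (log2 fold change 0.52 ± 0.18, adjusted p = 0.139). Of 17 G1 cyclins and inhibitors, Ccnd1, cyclin D1, was the one called, with 52.5, 66.2 and 63.6 CPM in the double knockout, against 102, 92.2 and 104 CPM in the heterozygous libraries (log2 fold change -0.71 ± 0.14, adjusted p = 0.0234). Its means in Puma-/- and wild-type cells were 41.3 and 41.9 CPM. Mycn had 41.2, 54.9 and 48.5 CPM in the double knockout, against 25.7, 23.6 and 38.5 CPM in the heterozygous libraries (adjusted p = 0.064, and 0.00505 without A3 and B1).

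Genes of energy supply and protein turnover were lower in value, and their medians depended on the trend with gene length. Of 79 oxidative phosphorylation subunits 13 fell, with a median of -0.58. Atp5o, a subunit of ATP synthase, had 45.7, 55.8 and 60.4 CPM in the double knockout, against 90.1, 109 and 81.0 CPM in the heterozygous libraries (log2 fold change -0.79 ± 0.15, adjusted p = 0.0161). The count was 0 without each of A1, A2, B1 and B3, 2 without D2 or D3, 19 without C3, 44 without A3 and 49 without B5. Of 39 proteasome subunits 3 fell, Psmc1, Psmb1 and Psmd6, with a median of -0.58. Of 77 cytosolic ribosomal proteins 4 fell, Rpl37a, Rpl8, Rps29 and Rps15a, with a median of -0.49. Calls in the proteasome and ribosome lists were 0 without each of A1, A2, B1 and B3, and with the trend on gene length removed the medians became -0.24, -0.30 and -0.10. Under the same step the mitosis median went to -0.60, with 14 falls in place of 43. Mitosis genes had a median length of 3472 bases, against 692, 1420 and 740 in the oxidative phosphorylation, proteasome and ribosomal lists. For high-level genes the step took the median from -0.51 to -0.10 under 1000 bases. From 2000 to 4000 bases it took that median from -0.14 to -0.07, so the moves of lists of unlike length cannot be compared. Pgk1 and Ldha, enzymes of glycolysis, fell by 0.83 ± 0.19 and 0.79 ± 0.18, and the mitochondrial chaperones Hspd1 and Hspe1 by 0.76 ± 0.17 and 0.77 ± 0.18.

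**Figure D4:**
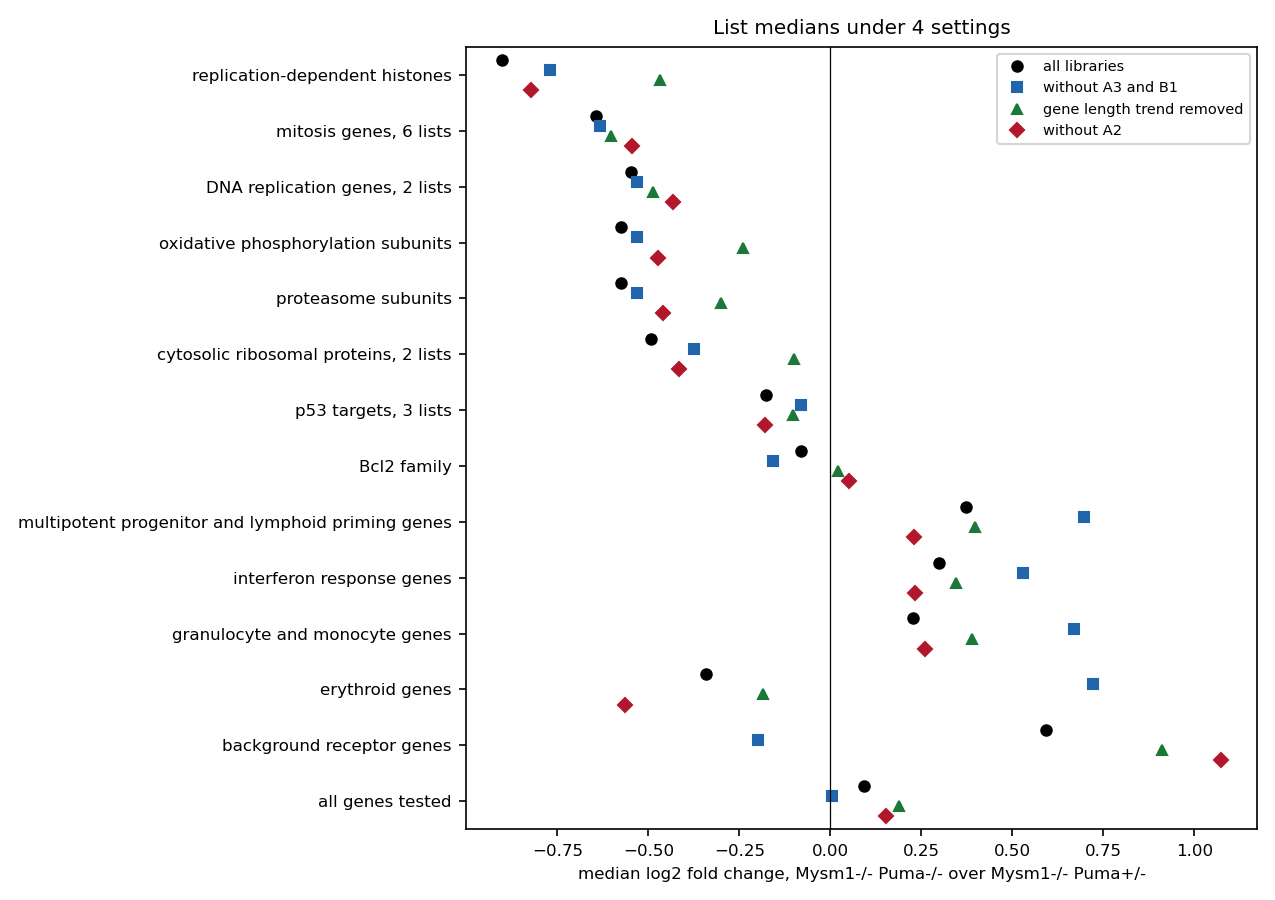
Median log2 fold change (x axis) of 14 gene groups (rows) with all libraries, without A3 and B1, with the trend on gene length removed, and without A2. Mitosis and DNA replication medians (median lengths 3472 and 3371 bases) stay between -0.65 and -0.43 in these 4 settings. The ribosomal protein median (740 bases) moves to -0.10 once the length trend is removed. The erythroid and background receptor medians change sign without A3 and B1.

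Outside these lists, the largest rises were of genes whose level in the heterozygous libraries was low. Of the 41 genes that rose, 35 had a heterozygous mean below the range of the 6 Mysm1-intact libraries, and 18 had a double-knockout mean within that range. These counts are descriptions, since genes called between 2 groups are those in which 1 of them is extreme. Slc35d3, a member of the nucleotide sugar transporter family that acts in platelet granules, had the largest rise. It had 32.7, 27.5 and 22.3 CPM in the double knockout, against 4.01, 5.76 and 9.86 CPM in the heterozygous libraries (log2 fold change 2.07 ± 0.35, adjusted p = 0.00921). Its means were 23.8 CPM in Puma-/- and 17 CPM in wild-type cells. Sema3d, a secreted guidance factor, had 40.6, 57.1 and 35.1 CPM in the double knockout, against 5.00, 5.98 and 22.1 CPM in the heterozygous libraries (log2 fold change 2.01 ± 0.42, and 3.06 without A3 and B1).

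Pdgfrb, a growth factor receptor of stromal cells, had 43.7, 48.2 and 48.2 CPM in the double knockout, against 19.7, 17.4 and 27.8 CPM in the heterozygous libraries, and averaged 50.7 ± 3.35 in Puma-/- and 48.9 ± 2.40 in wild-type cells (SD, n = 3 each). Its log2 fold change was 1.11 ± 0.16 (adjusted p = 0.00792), and it was the 1 member called of 24 stromal and endothelial genes, whose sum was 258 to 281 CPM in the double knockout and 216 to 250 CPM in the heterozygous libraries. Auts2, a partner of a Polycomb complex, had 15.1, 20.6 and 17.7 CPM in the double knockout, against 7.07, 7.27 and 6.40 CPM in the heterozygous libraries. Serpinf1, a secreted serpin, had 33.0, 24.7 and 27.2 CPM in the double knockout, against 9.94, 12.5 and 14.6 CPM in the heterozygous libraries. Epha7, an ephrin receptor, had 21.5, 22.6 and 23.2 CPM in the double knockout, against 11.8, 10.4 and 9.53 CPM in the heterozygous libraries. Hnf4a, a nuclear receptor best known in liver, had 13.8, 19.6 and 15.6 CPM in the double knockout, against 7.63, 7.14 and 8.65 CPM in the heterozygous libraries. That was a rise of 1.06 ± 0.17, to a level still below the 44.9 CPM of Puma-/- and the 49.0 CPM of wild-type cells. Plag1, Mn1, Pdzd4, Adam11 and Ptpdc1 completed the 12, with log2 fold changes of 1.60, 1.09, 1.30, 1.18 and 1.18. Each of these 12 calls was lost without A2. Those of Auts2, Serpinf1, Pdgfrb, Epha7 and Hnf4a held without any other single library.

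Among the 12 largest falls, which also held Clec10a and Ppic, the 3 libraries of the double knockout lay below all 9 others in Mnd1, Hist2h2bb, Pbk, Gpsm2, Cdk1 and Ptgr1. Gem, a small GTPase that restrains calcium channels, had 37.1, 37.9 and 28.5 CPM in the double knockout, against 115, 91.1 and 101 CPM in the heterozygous libraries. It averaged 24.6 ± 2.81 in Puma-/- and 20.6 ± 5.70 CPM in wild-type cells (SD, n = 3 each), and its log2 fold change was -1.57 ± 0.19 (adjusted p = 0.00413). Gem lies on chromosome 4 from 11631604 to 11641899 of NCBIM37. Emilin2, an extracellular matrix protein, had 11.7, 13.4 and 22.8 CPM in the double knockout, against 47.1, 50.3 and 36.2 CPM in the heterozygous libraries. Clec4e, the lectin Mincle that senses dead cells and mycobacteria, had 19.2, 23.0 and 24.7 CPM in the double knockout, against 66.1, 43.3 and 45.2 CPM in the heterozygous libraries. Lgals1, galectin-1, had 25.9, 50.3 and 51.8 CPM in the double knockout, against 103, 98.6 and 91.0 CPM in the heterozygous libraries. Ptgr1, a reductase of prostaglandins and leukotrienes, had 5.41, 7.40 and 7.85 CPM in the double knockout, against 23.4, 18 and 12.4 CPM in the heterozygous libraries. Of 120 falls outside the histone, mitosis and replication lists, 88 had a heterozygous mean above the range of the Mysm1-intact libraries. Of these 120 the double-knockout mean lay below that range in 89, within it in 22 and above it in 9.

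**Figure D5:**
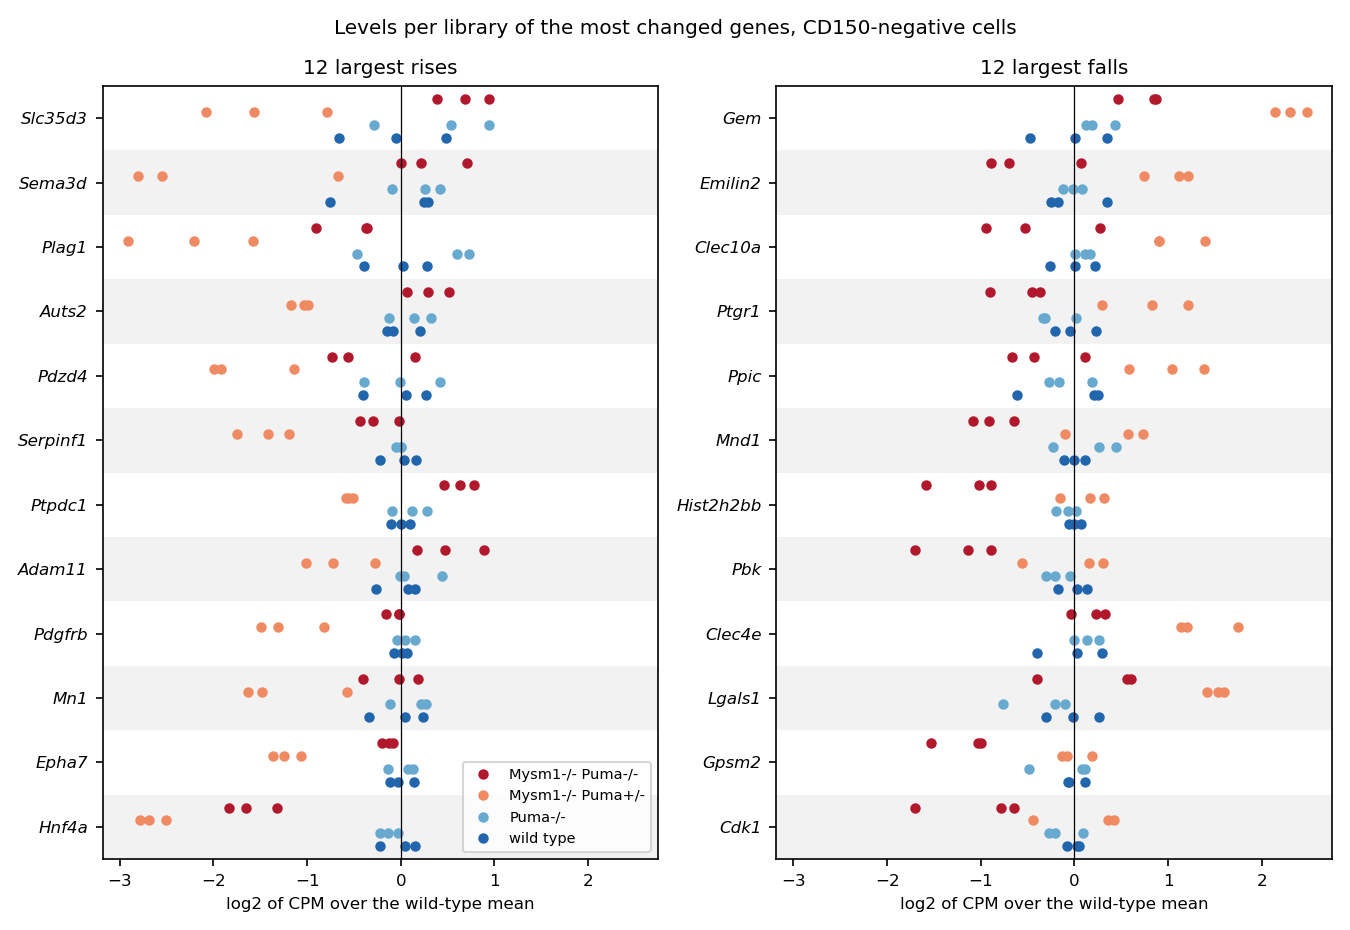
Level of the 12 largest rises and 12 largest falls in each CD150-negative library, as log2 of CPM over the wild-type mean (x axis; 0 is the wild-type mean), with 4 rows of points per gene from Mysm1-/- Puma-/- at the top to wild type at the bottom. Pdgfrb and Epha7 lie near 0 in the double knockout and below it in the heterozygous libraries, whereas Hist2h2bb, Pbk and Gpsm2 lie lowest in the double knockout.

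Targets of p53 were on average slightly lower in the double knockout than in the heterozygous libraries, and their mean level was higher in both than in Mysm1-intact cells. Over 3 lists of 61 tested genes, 3 fell and 0 rose, beside 1.05% and 0.194% of all genes, and 42 had a log2 fold change below 0, with a median of -0.18. Over all 21168 genes 3607 had an unadjusted p under 0.05 in either direction, and DESeq2 called 1126 lower and 251 higher. Among the p53 targets 7 were lower and 0 higher at that p, and DESeq2 called 6 lower and 0 higher. The median lay between -0.26 and -0.07 over all 25 alternatives. It was -0.08 without A3 and B1 and -0.10 with the length trend removed. Calls numbered 0 with that trend removed, and 0 without each of A1, A2, B1, B3 and D2. The mean level of the p53 targets was 4.44, 4.55 and 4.54 log2 CPM in B1, B3 and B5, against 4.70, 4.62 and 4.67 log2 CPM in A1, A2 and A3. These groups did not overlap, but B3 came close to A2. That mean level was 3.5 to 3.76 in Puma-/- and 3.54 to 3.70 in wild-type cells, so all 6 Mysm1-null libraries lay above all 6 Mysm1-intact ones. Cdkn1a, the p21 inhibitor of Cdks, had 25.5, 32.3 and 26.8 CPM in the double knockout, against 29.5, 32.3 and 37.7 CPM in the heterozygous libraries (log2 fold change -0.23 ± 0.21, adjusted p = 0.626). Its means were 2.35 and 2.37 CPM in Puma-/- and wild-type cells. Mdm2 had 115, 154 and 125 CPM in the double knockout, against 154, 136 and 156 CPM in the heterozygous libraries (adjusted p = 0.561). Trp53, which encodes p53 itself, had 47.6, 51.5 and 53.4 CPM in the double knockout, against 42.9, 54.2 and 66.0 CPM in the heterozygous libraries (adjusted p = 0.829).

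The called targets of p53 were Siva1, Bax and Rps27l. Bax, the pore-forming death effector that Puma sets off, had 29.2, 38.2 and 39.9 CPM in the double knockout, against 55.4, 63.3 and 50.5 CPM in the heterozygous libraries (log2 fold change -0.66 ± 0.16, adjusted p = 0.05, just under the threshold before rounding). It averaged 14.1 and 15.4 CPM in Puma-/- and wild-type cells, so the double knockout lay between. Without A3 and B1 Bax was not among the called members, which were Siva1, Rps27l and Gtse1. Siva1, a death-promoting adaptor, fell by 0.80 ± 0.17, to 29.4, 33.9 and 38.6 CPM in the double knockout, against 62.0, 68.0 and 47.3 CPM in the heterozygous libraries. Rps27l, a ribosomal protein variant, fell by 0.84 ± 0.19. Rps27l, at 464 bases, and Bax, at 869 bases, belong to the class of short genes whose median was -0.51. Noxa, encoded by Pmaip1, had 7.89, 14.0 and 15.2 CPM in the double knockout, against 16.1, 16.8 and 25.3 CPM in the heterozygous libraries (adjusted p = 0.309).

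Of 17 tested members of the Bcl2 family 0 were called by edgeR and 0 by DESeq2, with 2 higher and 3 lower at an unadjusted p under 0.05. Over all 21168 genes 0.194% rose and 1.05% fell by edgeR, and 3607 had such a p. At these shares 0 calls among 17 members say little about the family. The list median was -0.08. Bcl2, the founding survival protein, had 149, 206 and 177 CPM in the double knockout, against 158, 173 and 193 CPM in the heterozygous libraries (log2 fold change 0.02 ± 0.14). Mcl1 had 234, 297 and 258 CPM in the double knockout, against 335, 280 and 326 CPM in the heterozygous libraries (-0.25 ± 0.13, adjusted p = 0.342). Bcl2l11, which encodes the BH3-only protein Bim, had 32.4, 38.5 and 27.0 CPM in the double knockout, against 29, 26.0 and 35.6 CPM in the heterozygous libraries. Bmf and Hrk, other BH3-only genes, were higher in value at 6.55, 6.11 and 4.17 CPM and at 5.12, 3.54 and 2.18 CPM in the double knockout, against 2.25, 2.31 and 4.72 CPM and 2.3, 2.44 and 1.51 CPM in the heterozygous libraries, with adjusted p-values of 0.232 and 0.35. Of 23 caspase and apoptosome genes 0 were called by edgeR, which says as little beside the same shares. Of them 1 was higher and 4 lower at an unadjusted p under 0.05, and 3 were lower by DESeq2.

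Genes of progenitor identity and early lymphoid priming had higher median values in the double knockout, and A3 stood apart from A1 and A2. Of 27 members 0 were called by edgeR, with 4 higher and 1 lower at an unadjusted p under 0.05 and 1 each way by DESeq2, and the median was 0.37. Flt3, the cytokine receptor that marks multipotent progenitors, had 600, 746 and 535 CPM in the double knockout, against 274, 318 and 602 CPM in the heterozygous libraries. Satb1, a chromatin organiser of lymphoid priming, had 265, 396 and 295 CPM in the double knockout, against 91.6, 114 and 300 CPM in the heterozygous libraries. A1 and A2 were thus low and A3 was within the range of the double knockout. For Flt3 A3 was close to the wild-type mean of 649 CPM, and for Satb1 it was below the wild-type mean of 406 CPM. Without A3 and B1 7 of the 27 rose (0.978% of all genes rose there), Satb1, Flt3, Wfdc17, Sox4, Il12a, Bcl11a and Notch1, with a list median of 0.70. Satb1 then had a log2 fold change of 1.74 (edgeR adjusted p = 0.000423) and Flt3 1.10 (adjusted p = 0.00395). With all libraries these were 0.92 (adjusted p = 0.136) and 0.66 (adjusted p = 0.15). That refit sets A1 and A2 against B3 and B5 and was chosen after seeing the data. Leaving out A3, the high heterozygous library, itself widens these differences, so the smaller p-values add no support.

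Interferon response genes followed the same split. Of 43 members 0 were called by edgeR with all libraries, with 10 higher and 2 lower at an unadjusted p under 0.05 and 5 higher by DESeq2, and the median was 0.30. Ifit3 had 35.4, 35.5 and 37.8 CPM in the double knockout, against 11.2, 18 and 25.6 CPM in the heterozygous libraries, with no overlap (log2 fold change 0.99 ± 0.25, adjusted p = 0.055). Ifit1 had 23.6, 31.5 and 30.9 CPM in the double knockout, against 8.70, 12.1 and 22.5 CPM in the heterozygous libraries (adjusted p = 0.0855). Without A3 and B1 13 members rose and 0 fell, among them Gbp6, Ifit1, Ifi44 and Rsad2, with a list median of 0.53. Of 21 genes of dendritic cells and antigen presentation 0 were called by edgeR with all libraries, with 2 higher and 0 lower at an unadjusted p under 0.05 and 1 higher by DESeq2, and the median was 0.23. Without A3 and B1 4 of them rose. H2-Eb1, a class II gene, had 43.7, 46.6 and 44.1 CPM in the double knockout, against 19.4, 17.2 and 80.1 CPM in the heterozygous libraries, among which A3 was the highest. Its log2 fold change was 0.20 ± 0.40 (adjusted p = 0.867), and 1.30 without A3 and B1 (adjusted p = 0.00851).

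Genes of mature blood cells varied among libraries of the same group. Erythroid genes summed to 533, 511 and 604 CPM in the double knockout, against 511, 447 and 1054 CPM in the heterozygous libraries, with 0 of 26 tested members called by edgeR or DESeq2 and 2 lower at an unadjusted p under 0.05. Their median was -0.34 with all libraries and 0.72 without A3 and B1, when Car1 and Aqp1 rose. Granulocyte and monocyte genes summed to 1195, 1983 and 3153 CPM in the double knockout, against 1394, 1902 and 2459 CPM in the heterozygous libraries, with 0 of 32 called by edgeR, 2 higher at an unadjusted p under 0.05 and 1 by DESeq2. S100a9, a granulocyte gene, was at 221 CPM in B5, 15.9 in B1 and 33.5 in B3, against 28.8 to 68.4 CPM in the heterozygous libraries. Plasma and B cell genes summed to 888, 1755 and 372 CPM in the double knockout, against 1571, 1543 and 604 CPM in the heterozygous libraries, with 0 of 24 called by edgeR or DESeq2 and 3 higher at an unadjusted p under 0.05. The part of these cells in the changes of other genes was not tested.

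Stem cell genes had a median of -0.01 over 40 members, against 0.09 over all genes. Cd9, a tetraspanin of megakaryocytes, fell, with 15.4, 12.1 and 19.8 CPM in the double knockout, against 34.3, 30.2 and 27.1 CPM in the heterozygous libraries (-0.95 ± 0.21, adjusted p = 0.0359). Etv5, an Ets factor induced by growth factor signalling, had 26.6, 26.2 and 25.8 CPM in the double knockout, against 53.9, 50.6 and 49.8 CPM in the heterozygous libraries (-0.97 ± 0.18, adjusted p = 0.0137). Of 28 writers and erasers of H2A ubiquitin, the mark that Mysm1 removes, 0 were called by edgeR or DESeq2, with 1 higher and 2 lower at an unadjusted p under 0.05, and the median was -0.01. Over all genes tested 0.194% rose and 1.05% fell by edgeR, so 0 calls in a list of this size say little.

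Whether the effect of Puma loss was particular to CD150-negative cells was tested as a difference of differences. In CD150-positive cells of the same sort, 7 libraries were Mysm1-/- Puma-/- and 4 were Mysm1-/- Puma+/-. None of 21830 genes (0.0%) differed in the effect between the populations by edgeR or by DESeq2, while 462 had an unadjusted p under 0.05. Mitosis genes had a mean level of 5.50 to 5.89 log2 CPM with a median of 5.59 in the 7 double-knockout libraries, against 5.56 to 6.55 with a median of 6.17 in the 4 heterozygous ones, so in these cells the ranges overlapped. The difference of the effect had a median of -0.13 over mitosis genes and -0.62 over histones, against 0.05 over all genes. For Cdk1 it was -0.37 ± 0.33 (SE) and for Hist2h2bb -0.79 ± 0.29, both with an adjusted p of 1. The A2 libraries of both populations carry the Xist signal, and whether libraries of 1 name share animals is not given in the sources used here. The genes of smallest p were Tnk2 (-0.75 ± 0.21), Ptpdc1 (1.24 ± 0.36), Polr2e (-0.61 ± 0.18), Odc1 (-0.64 ± 0.20), Rexo2 (-0.59 ± 0.18) and Igf2bp2 (1.11 ± 0.35). Odc1, the first enzyme of polyamine synthesis, had 129, 157 and 202 CPM in the CD150-negative double knockout, against 289, 280 and 240 CPM in the heterozygous libraries. In CD150-positive cells it ran from 188 to 265 CPM with a median of 232 in the double knockout, against 170 to 278 with a median of 258 in heterozygous cells. The design had limited reach, since in simulated data the test recovered 38% of 2-fold and 80% of 4-fold differences.

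Whether the effect needed the absence of Mysm1 was tested against Puma-/- over wild-type cells of the same sort. The Puma reference is heterozygous on one side and wild type on the other, so allele dose differs. Of 21168 genes 3 (0.0142%) differed, Gem, Sox11 and Bc1, of which Sox11 and Bc1 lie outside the naming rule and were chosen after their values were seen. Gem was lower without Mysm1 and not with it, a difference of -1.82 ± 0.27 (adjusted p = 0.0265). Sox11, a transcription factor of nerve precursors, had 7.66, 7.47 and 5.28 CPM in the double knockout, against 1.96, 1.84 and 1.67 CPM in the heterozygous libraries. It had 1.36, 3.10 and 1.91 CPM in Puma-/- cells, against 5.27, 4.67 and 5.90 CPM in wild-type cells, so the 2 effects ran in opposite directions (difference 3.21 ± 0.48, adjusted p = 0.0274). Bc1, a small RNA of nerve cells, had 4.41, 3.90 and 3.60 CPM in the double knockout, against 0.645, 0.329 and 0.576 CPM in the heterozygous libraries. It had 0.0714, 0.305 and 0.354 CPM in Puma-/- cells, against 3.09, 2.03 and 6.63 CPM in wild-type cells (difference 6.93 ± 0.87, adjusted p = 0.00726). In the fit with all libraries 1595 genes had an unadjusted p under 0.05. Over all genes refitted, the 3 calls became 0 without A2 or without B1. They became 1 without each of A1, B3, B5, C2, C5, D2 and D3, 2 without D4, 4 without C3 and 23 without A3. Over the mitosis lists the difference had a median of -0.52 and over histones -0.79, against 0.07 over all genes, with no member called. For Ccna2 it was -0.84 ± 0.23 (adjusted p = 0.617).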

How the data were processed

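Stranded paired-end libraries were made from rRNA-depleted RNA, per the labels' protocols. The deposited counts are whole reads per gene symbol, made by the authors with Trimmomatic 0.33, TopHat2 2.0.9, Bowtie 1.0.0 on mm9, and featureCounts, per the submitters' processing notes; the annotation and strand setting are not given in the sources used here, so overlapping genes and antisense partners may share reads. The deposited CPM matrix holds the authors' normalized CPM values for 12578 genes and served an alternative only. Gene length in bases, another value, was taken from the deposited count tables.

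The CD150-negative libraries held 28066870 to 54339749 counts. edgeR 4.0.16 (R 4.3.3; TMM scaling, filterByExpr, quasi-likelihood F-test, Benjamini-Hochberg threshold 0.05) was fitted to all 12 with 4 genotype groups, or to both populations for the difference between them. SE is the absolute log2 fold change over the square root of F, an approximation. Levels are TMM-scaled CPM, and list levels are means of log2 CPM with a prior count of 2. List members and lists were chosen with earlier results of these data known, and 2857 entries of 46 lists matched while 7 did not. Named genes are Mysm1, Bbc3, the 12 largest rises and falls among called genes whose log2 CPM averages 2 or more and whose groups share no range, the 6 called genes of highest level, up to 4 members of smallest p per list, any member of the Bcl2, p53 and mitosis lists, and 6 genes per interaction. Other genes in the text were chosen after their values were seen, and a few genes that meet the rule are not reported here. In simulated data of the main comparison, 71.0% of 2-fold and 97.0% of 4-fold changes were recovered among 21168 genes, and 0.038% of unchanged genes were called. In all simulations each gene was drawn on its own, and changed genes had a log2 CPM of 2 or more. Shifts shared by many genes of a library, such as those of A2, A3 and B1, were not simulated, so these rates do not cover them.

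Alternatives were RLE scaling, no low-count filter, background as covariate, leaving out libraries, limma 3.58.1 (voom with quality weights, trend on deposited CPM with a pseudocount of 1), DESeq2 1.42.0, the 6 libraries alone and a replicate block. Leaving out both A3 and B1, blocking on library name in the test between populations, and removing each library's lowess trend on gene length (span 0.3), were chosen after seeing the data. Gene coordinates are of NCBIM37; promoters are RefSeq's of GRCm38.p6, first listed start per gene.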

Additional observations from a re-analysis of the deposited data

Results flagged for a closer look

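In 3 genes the effect of Puma loss differed between cells without and with Mysm1 by a test of the difference itself. The difference was 3.21 on the log2 scale in Sox11, which was higher in the double knockout than in Mysm1-/- Puma+/- cells and lower in Puma-/- than in wild-type cells. It was 6.93 in Bc1, with the same directions at levels of at most 6.63 CPM. It was -1.82 in Gem, which was lower in the double knockout. Every one of these calls was lost without A2 or without B1.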

How the results depend on the processing

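The 263 calls became 1377 by DESeq2, 1724 by voom, 64 without libraries over 1.5 times the median background, 2 with only the 6 libraries, 520 without A3 and B1 (1290 by DESeq2), 66 with the length trend removed and 443 with both; with 1 library left out they ran from 1 to 1086. RLE scaling, no low-count filter, the background covariate (133 rises and 191 falls) and limma-trend kept the count within 1.5 times. The 3 differences by Mysm1 status became 70 by DESeq2, 5 with the background covariate, 0 without high background, and 0 to 23 with 1 library left out. The difference between populations had 0 calls in every alternative. In histones, mitosis and replication, 53, 43 and 6 falls became 0 in each with only the 6 libraries, and 16, 14 and 1 with the length trend removed. Removing the trend without A3 and B1 gave 21 histone and 23 replication falls; leaving out those libraries alone gave 20 replication falls. By DESeq2 75 mitosis and 34 replication genes fell (71 and 34 without A3 and B1), by voom 78 and 37, and without high background 4 and 1. With 1 library left out, histone falls ran from 0 to 54, mitosis from 0 to 73 and replication from 0 to 32. Bbc3, not called, turned to 0.087 with the background covariate, 0.004 by voom, 0.17 without A3 and B1 (0.166 by DESeq2), 0.23 with the length trend also removed, and -0.556 to 0.041 with 1 library left out. The cause was not tested, beyond the fewer samples or genes that some alternatives hold.

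The replicate numbers name libraries and are not stated to pair them; same-numbered libraries correlated at 0.288 (A1 and B1) and 0.31 (A3 and B3), the 2 such pairs of the groups compared, but at -0.485 in A3 and C3. With a replicate block the calls, and the histone, mitosis and replication falls, were 0. Libraries of 1 name in both populations correlated at -0.188 (B5) to 0.645 (A2), not above 0.1 in every pair. With library name as replicate block, 0 genes differed between the populations by edgeR, with 683 at an unadjusted p under 0.05.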
